A study of Mus musculus with 16 samples.

Results

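The genes described here were 9 that mark the first steps of the granulocyte and monocyte lineages: Mpo, Elane, Prtn3 and Ctsg of the primary granule, Ms4a3 and Lyz2, and the colony-stimulating factor receptor genes Csf1r, Csf3r and Csf2ra. They were chosen by name, and each name stood on 1 line of the 46078 genes in the count table. They were read in HSCs sorted as LSK SLAM cells (lineage-negative, cKIT+, SCA1+, CD48-, CD150+) of WT B6.SJL mice and split on MAC-1, which is made of CD11B and CD18. The 16 samples were 3 SS MAC-1- and 3 SS MAC-1low samples of untreated mice, and 3 MAC-1-, 4 MAC-1low and 3 MAC-1+ samples of 4 week HSCs. The 4 week HSCs came from recipients given 8000 LSK cells after 900 cGy, 4 weeks earlier. Whole bone marrow of the recipients' type was given with such grafts, per the methods. Irradiation, transplantation and time were thus not separated, and ages and the mice behind each sample are not in the labels used here. No SS MAC-1+ sample was analysed here.

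Primary, or azurophilic, granules are made at the promyelocyte stage of neutrophil development. MPO makes hypochlorous acid from hydrogen peroxide and chloride, and ELANE, PRTN3 and CTSG are serine proteases that are stored in the same granule after activation by cathepsin C (Ctsc). MS4A3 is a membrane protein of granulocyte-monocyte progenitors, and Lyz2 encodes the lysozyme of granulocytes and macrophages. CSF1R, CSF3R and CSF2RA bind M-CSF, G-CSF and GM-CSF, of which CSF2RA needs the shared beta chain of Csf2rb to signal. HSCs are placed above these stages, and low levels of such transcripts in them are often described as myeloid priming.

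The promoters of the 4 primary granule genes are shown because these genes had unlike levels in HSCs although they serve the same granule. PU.1, encoded by Spi1, is a factor known at myeloid promoters, and the letters GAGGAA, the core it binds, are in capitals. The sequences are from RefSeq on GRCm38.p6, 5' to 3' on the strand of the gene, and are cut short of the bases that GENCODE M21 counts as exons. The start that RefSeq gives for Prtn3 lies within the longer gene of GENCODE, so that its stretch is intronic there. Prtn3 (chr10:79879417-79879613, plus strand) and Elane (chr10:79886062-79886246, plus strand) are 2 neighbours, Mpo is at chr11:87793534-87793580 (plus strand) and Ctsg at chr14:56102575-56102824 (minus strand).
Prtn3: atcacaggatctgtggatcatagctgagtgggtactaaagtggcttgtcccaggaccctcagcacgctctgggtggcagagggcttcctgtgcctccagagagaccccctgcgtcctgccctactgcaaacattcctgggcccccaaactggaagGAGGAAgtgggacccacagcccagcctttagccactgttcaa
Elane: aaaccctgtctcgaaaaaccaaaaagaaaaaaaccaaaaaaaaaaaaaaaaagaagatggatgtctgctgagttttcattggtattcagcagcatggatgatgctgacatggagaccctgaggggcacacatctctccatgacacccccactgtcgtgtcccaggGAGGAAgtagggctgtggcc
Mpo: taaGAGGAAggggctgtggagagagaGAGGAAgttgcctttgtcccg
Ctsg: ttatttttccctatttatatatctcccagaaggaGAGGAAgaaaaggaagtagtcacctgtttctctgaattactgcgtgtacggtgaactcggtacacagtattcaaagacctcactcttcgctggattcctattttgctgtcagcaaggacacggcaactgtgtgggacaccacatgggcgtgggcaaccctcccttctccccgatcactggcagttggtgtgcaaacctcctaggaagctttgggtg
On either strand of the 250 bases before the start, GAGGAA was found in 23.3% of 32851 RefSeq promoters and in 6 of the 8 members with one (Mpo, Elane, Prtn3, Ctsg, Csf3r and Csf2ra). The C/EBP-type letters TTGCNNAA were found in 9.56% of promoters and in 0 of the 8 members. The RUNX core TGTGGT (14.05% of promoters) was found in Ctsg and Lyz2, and the MYB core AACNG (74.2%) in 7 of the 8, all but Ms4a3. In the 4 promoters shown, no match of one motif overlapped a match of another. These matches describe letters and not bound sites.

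Total counts ran from 13781278 to 28580658 per sample, and a count of 0 allowed up to 3 counts, which was 0.112 to 0.220 CPM (counts per 1000000, scaled with TMM factors). Such floors cover counting error only, since SMART-Seq reads carry no molecular identifiers. All 8 HSC markers were above the floor in 15 of the 16 samples and 7 of 8 in 1, with summed levels of 690 to 3451 CPM. Cd48, which the gate excludes, was at 71.6 to 133 CPM in 4 week MAC-1- and 60.2 to 107 CPM in 4 week MAC-1low samples. It was at 0 to 45.4 CPM in 4 week MAC-1+, 0 to 25.5 CPM in SS MAC-1- and 0 to 42.1 CPM in SS MAC-1low samples. Itgam, the gene of CD11B, was at 8.30, 29.97 and 3.79 CPM in 4 week MAC-1+ samples and at 0 to 1.78 CPM in 4 week MAC-1- samples, without overlap (adjusted p = 0.400, edgeR), while Itgb2, the gene of CD18, was lower without overlap, at 8.53 to 15.9 against 18.8 to 31.4 CPM (adjusted p = 0.864, edgeR). One library stood apart: 4 week MAC-1+ replicate 3 had 6963 CPM summed over 11 neutrophil markers against 23.8 to 958 in the other 15, and 9 of the 11 were above the floor in it, while Ly6g, which defines mature neutrophils, reached at most 0.122 CPM anywhere. Its HSC markers summed to 2265 CPM, the lowest of the 3 MAC-1+ samples and above the 13 samples of the other populations. The main values that rest on this library are given with and without it. Counts of members with p below 0.05 before adjustment are given with it only. Fewer cells with a transcript and less of it per cell cannot be told apart in these bulk samples.

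Among the primary granule genes, Prtn3 was present in all 16 samples, whereas Mpo, Elane and Ctsg were at or near 0 in nearly all of them. Per base of exon, the median over the samples was 86.5 RPKM (CPM per kilobase of exon) for Prtn3, 0.0150 for Mpo and 0 for both Elane and Ctsg. In 4 week MAC-1+ replicate 3 the 4 genes stood closer together, at 202 RPKM for Prtn3, 200 RPKM for Elane, 85.0 RPKM for Ctsg and 46.5 RPKM for Mpo.

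Mpo (chromosome 11, 87793581 to 87804413), the peroxidase gene, had 4038 counts in 4 week MAC-1+ replicate 3, of 4158 in all samples. In SS MAC-1- samples it had 6, 0 and 0 counts, in SS MAC-1low 6, 0 and 69, in 4 week MAC-1- 24, 10 and 0, in 4 week MAC-1low 0, 3, 2 and 0, and in the other two 4 week MAC-1+ samples 0 and 0. The next sample after replicate 3 was SS MAC-1low replicate 3, at 3.55 CPM against 159 CPM, a ratio of 44.9. All populations overlapped, since each held a sample at 0.

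Elane (chromosome 10, 79886247 to 79888215), the gene of neutrophil elastase, had 4978 counts in the same library, or 196 CPM, and 0 in both other 4 week MAC-1+ samples. In the 4 week MAC-1low samples it had 124, 149, 0 and 0 counts, or 7.59 and 6.83 CPM in replicates 1 and 2. Of the other 9 samples, 2 had 1 count each and 7 had none. Elane was therefore above the floor in 3 libraries, all of 4 week MAC-1low or MAC-1+ HSCs. It had 0 counts in the other 4 such libraries, at a floor of 0.112 to 0.188 CPM. For 4 week MAC-1low HSCs the adjusted p was 0.637 against 4 week MAC-1- and 0.570 against SS MAC-1low (edgeR). DESeq2 called the first (adjusted p = 4.7e-05) and not the second (adjusted p = 0.565). In the 2 MAC-1low libraries with Elane, Mpo had 0 and 3 counts and Ctsg had 0, and their neutrophil markers summed to 112 and 32.0 CPM, within or below the range of the SS samples (79.6 to 169 CPM).

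Ctsg (chromosome 14, 56099881 to 56102574), the gene of cathepsin G, had 2225 counts in 4 week MAC-1+ replicate 3, or 87.8 CPM, 1 count in SS MAC-1low replicate 2 and 0 in the other 14 samples. Relative to the largest floor of those 14, its level in replicate 3 was 399.7-fold higher, a ratio that covers counting error only. Ctsg failed the default filter on low counts and was tested only with no filter.

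**Figure D1:**
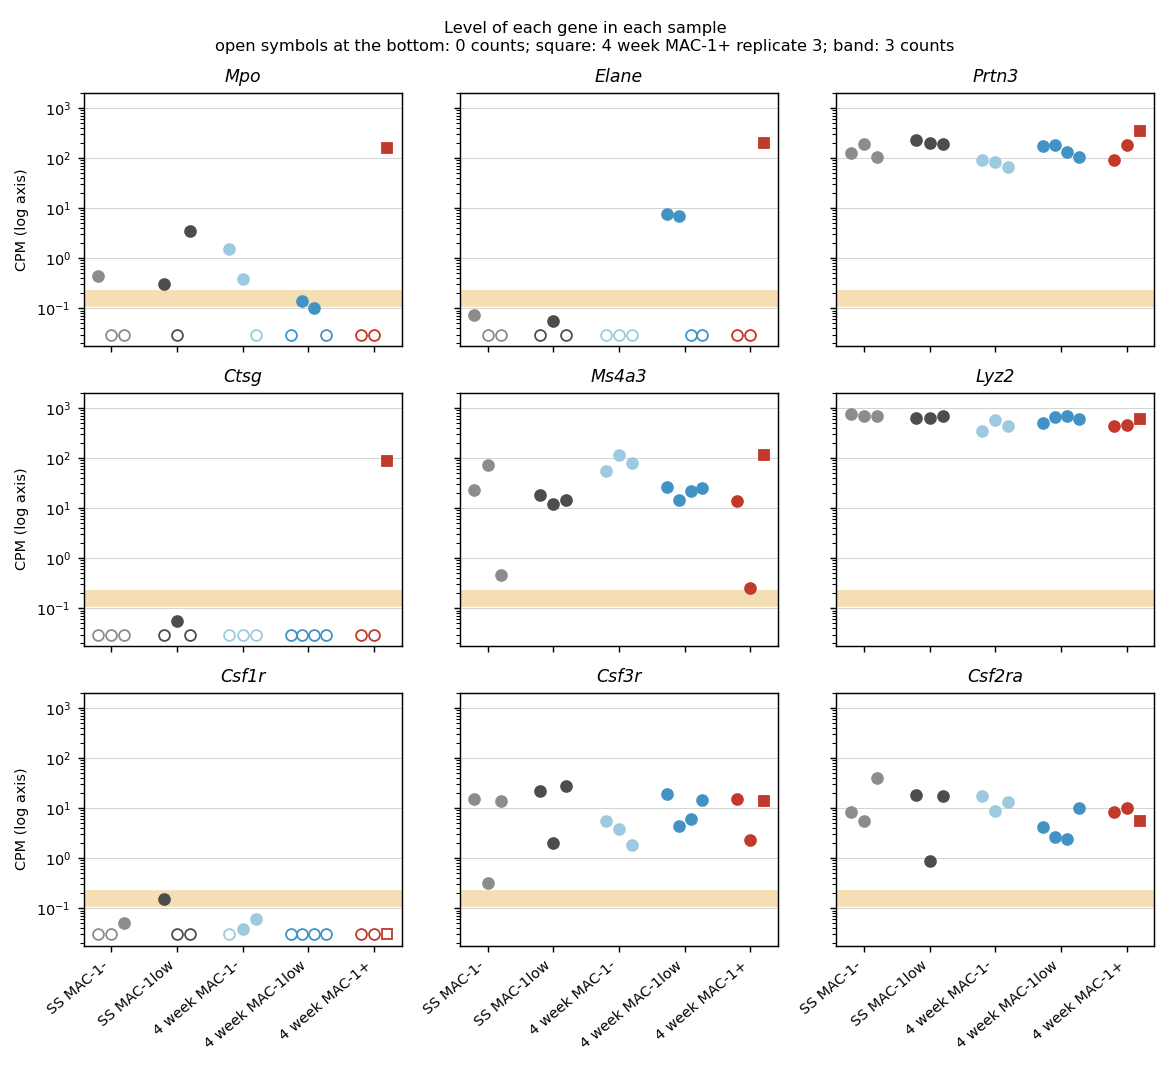
CPM (log axis) of the 9 genes in each of the 16 samples by population, where open symbols at the bottom had 0 counts, the band spans 3 counts in the different libraries and the square is 4 week MAC-1+ replicate 3. Lyz2 and Prtn3 lie above 66 CPM in every sample, and Mpo, Elane and Ctsg exceed 10 CPM only in the square.

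The sum of Mpo, Elane and Ctsg was 444 CPM in 4 week MAC-1+ replicate 3 and 0 to 7.59 CPM in the other 15 samples. The neutrophil markers did not order the samples the same way below that. 4 week MAC-1+ replicate 2 had the second highest sum of neutrophil markers, 958 CPM, with S100a8 at 464, Camp at 123 and Ngp at 150 CPM, and 0 counts of Mpo, Elane and Ctsg. In replicate 3, S100a8 was at 3902, Camp at 918 and Ngp at 455 CPM. S100a8 encodes a calcium-binding alarmin, and Camp and Ngp encode proteins of the later secondary granule. Replicate 3 also held Ly6c2 at 108, Igsf6 at 12.0 and F13a1 at 17.2 CPM, genes of monocytes and their progenitors that were at or below 0.190 CPM in the other 15 samples. The list of 10 monocyte/macrophage markers did not set it apart. They summed to 177 CPM in replicate 3 and to 304 and 310 CPM in the other MAC-1+ samples, and Csf1r had 0 counts in replicate 3. Of the 11 neutrophil markers 6 were tested, and S100a8 and S100a9 passed upward in 4 week MAC-1+ against MAC-1- HSCs, also without replicate 3. Of all genes, 1.19% passed upward there, and 1.76% passed in either direction without replicate 3. The part of other cells in the levels of the granule genes was not tested.

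**Figure D2:**
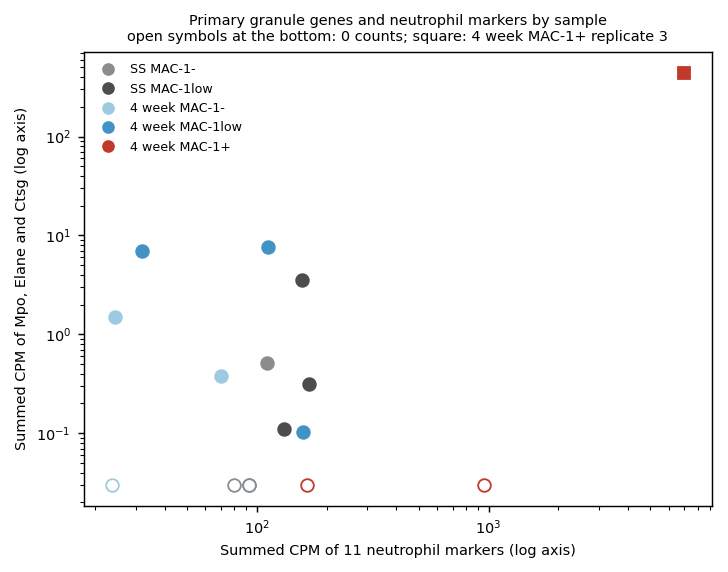
Summed CPM of Mpo, Elane and Ctsg (y, log axis) against summed CPM of 11 neutrophil markers (x, log axis), 1 point per sample, coloured by population, with open symbols at the bottom for 0 counts. The square at 6963 and 444 CPM is 4 week MAC-1+ replicate 3, and the open red symbol at 958 CPM is replicate 2.

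Prtn3 (chromosome 10, 79874476 to 79883174), the gene of proteinase 3, was the one member that passed the test in a comparison. It was at 89.2, 81.9 and 66.6 CPM in 4 week MAC-1- samples, at 170, 180, 129 and 104 CPM in 4 week MAC-1low samples and at 92.7, 185 and 350 CPM in 4 week MAC-1+ samples. Each 4 week MAC-1- sample was below each MAC-1low and each MAC-1+ sample, where 10.8% and 21.7% of all tested genes had no overlap. In SS HSCs it was at 127, 191 and 107 CPM in MAC-1- and at 226, 198 and 192 CPM in MAC-1low samples, also without overlap, though by as little as 192 against 191 CPM.

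At 4 weeks Prtn3 was higher in MAC-1+ than in MAC-1- HSCs, by 1.403 on the log2 scale (SE 0.39, adjusted p = 0.0900, edgeR's quasi-likelihood test with Benjamini-Hochberg adjustment over 13661 genes), with means of 209 ± 130 and 79.3 ± 11.5 CPM (SD, n = 3 each). In this comparison 3.25% of the tested genes passed the threshold of 0.1 in either direction (1.19% upward and 2.06% downward) and 21.7% had no overlap between samples. DESeq2 (adjusted p = 0.00561, with 10.2% of genes called) and limma-voom (adjusted p = 0.0942, with 6.52% called) also called Prtn3. The edgeR call stood just inside the threshold, and without replicate 3 of the MAC-1+ samples the log2 difference was 0.85 (adjusted p = 0.357, edgeR), with a mean of 139 CPM over the other 2 samples. It was lost when any of 12 of the 16 samples was left out, and kept without SS MAC-1- replicate 2 or 3, 4 week MAC-1low replicate 2 or 4 week MAC-1+ replicate 1. The 4 week MAC-1- samples were also lowest in HSC markers, at 690 to 889 CPM in sum against 2265 to 3451 CPM in MAC-1+, and 5 of the 8 markers (Hlf, Ly6a, Procr, Mecom and Kit) passed upward in this comparison. The 10 monocyte/macrophage markers summed to 177 to 310 CPM in MAC-1+ against 43.4 to 70.9 CPM in MAC-1- samples, with 2 to 5 and 2 to 3 of them above the floor, and Ms4a6c passed upward. The 5 erythroblast markers summed to 77.1 to 170 against 17.4 to 32.5 CPM, with 3 to 4 above the floor in both, and Hbb-bt passed upward. The 11 neutrophil markers summed to 164, 958 and 6963 CPM in MAC-1+ against 23.8 to 70.2 CPM in MAC-1- samples, and S100a8 and S100a9 passed upward. Cd48, which the gate excludes, went the other way without passing, at 0 to 45.4 against 71.6 to 133 CPM. The part of these lists and of Cd48 in the level of Prtn3 was not tested.

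By mean level over all samples, the order for Prtn3 was 4 week MAC-1+ (209 ± 130 CPM), SS MAC-1low (206 ± 18.02), 4 week MAC-1low (146 ± 35.5), SS MAC-1- (142 ± 44.2) and 4 week MAC-1- (79.3 ± 11.5). The 2 highest populations overlapped, as did 4 week MAC-1low and SS MAC-1-. Without replicate 3 the mean of 4 week MAC-1+ was 139 CPM (n = 2), which was below 4 week MAC-1low and SS MAC-1-. SS MAC-1low did not overlap with 4 week MAC-1low (10.4% of all genes), and 4 week MAC-1- did not overlap with SS MAC-1- (16.6%). None of these steps between time points passed the test: 4 week MAC-1- was lower than SS MAC-1- by 0.84 on the log2 scale (SE 0.39, adjusted p = 0.467, edgeR), and 4 week MAC-1low differed from SS MAC-1low by -0.50 (SE 0.36, adjusted p = 0.773, edgeR). The log2 difference between MAC-1low and MAC-1- was 0.88 (SE 0.37, adjusted p = 0.609, edgeR) at 4 weeks and 0.54 (SE 0.38, adjusted p = 0.744, edgeR) in SS, and the difference between these was 0.34 (SE 0.52, adjusted p = 0.964, edgeR).

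**Figure D3:**
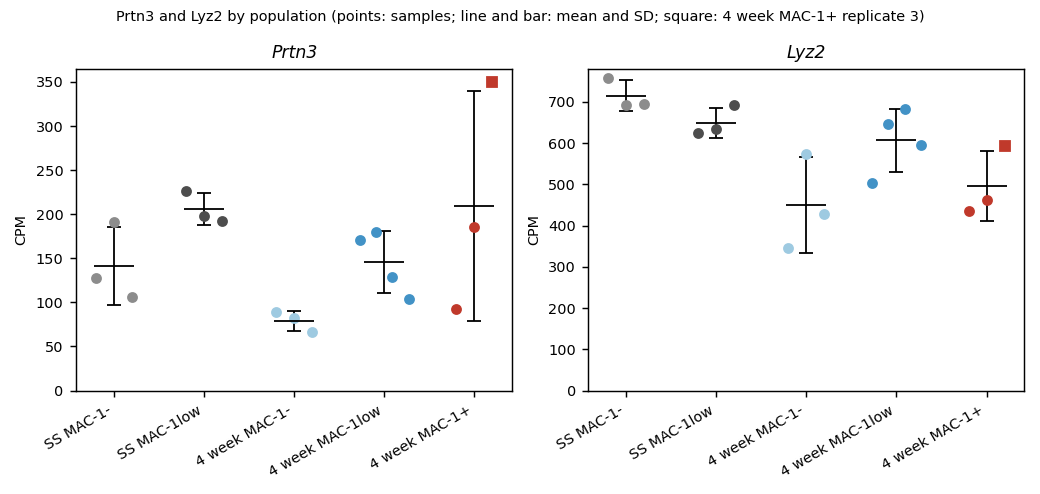
CPM of Prtn3 and Lyz2 in each sample by population (axes from 0), with the mean as a line and the SD as a bar, n = 3 or 4. The 3 4 week MAC-1- samples are the 3 lowest for Prtn3, and for Lyz2 the 3 SS MAC-1- samples lie above all 4 week MAC-1low, MAC-1- and MAC-1+ samples.

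Prtn3 and Elane lie side by side on chromosome 10 on the same strand, 3072 bases apart, with Cfd, the gene of complement factor D, just beyond. Over the 16 samples, Prtn3 had 1105 to 8874 counts, Elane had 0 counts in 11 samples and Cfd had 1 count in 2 samples and none in the others. High Prtn3 without Elane was thus the usual state: SS MAC-1low samples had 192 to 226 CPM of Prtn3 and 0, 1 and 0 counts of Elane. Plppr3, named Lppr3 in the table, lies on the opposite strand and an exon of it overlaps the annotated start of Prtn3, and since no use of strand in counting is stated, reads there cannot be told apart. Lppr3 had 0 to 349 counts and was highest in 4 week MAC-1+ replicate 2, at 20.8 CPM.

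**Figure D4:**
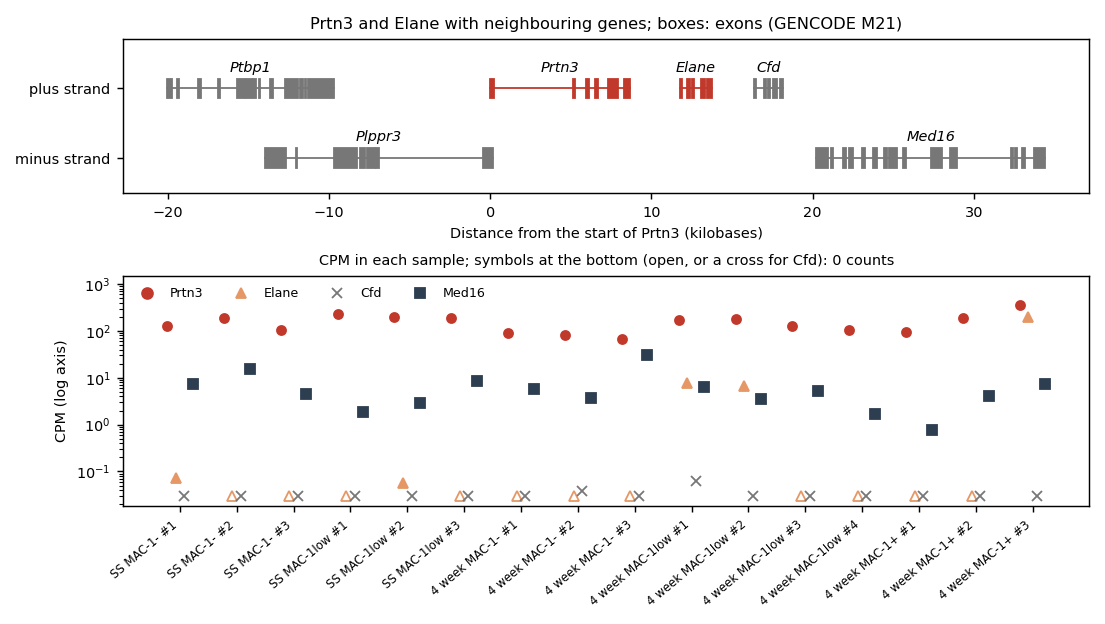
Top, exons (boxes) of Prtn3, Elane and their neighbours by distance from the start of Prtn3 in kilobases and by strand (GENCODE M21). Bottom, CPM (log axis) of Prtn3, Elane, Cfd and Med16 in each sample, with symbols at the bottom for 0 counts, where Prtn3 is at 66.6 CPM or more in every sample and Elane is above 1 CPM in 3.

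Lyz2 (chromosome 10, 117277331 to 117282321) was the most abundant member, with a median of 463 RPKM and a range of 262 to 576 RPKM over the samples. It was at 758, 692 and 696 CPM in SS MAC-1-, at 624, 633 and 691 CPM in SS MAC-1low, at 345, 574 and 428 CPM in 4 week MAC-1-, at 504, 646, 682 and 595 CPM in 4 week MAC-1low and at 435, 461 and 593 CPM in 4 week MAC-1+ samples. Each SS MAC-1- sample was thus above every other sample, though by as little as 691.6 against 691.3 CPM in SS MAC-1low replicate 3. Unlike Mpo, Elane and Ctsg, it was not highest in the library that stood apart.

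The mean of Lyz2 was 715 ± 37.0 CPM in SS MAC-1- and 449 ± 116 CPM in 4 week MAC-1- HSCs (SD, n = 3 each), a log2 difference of -0.67 (SE 0.19, adjusted p = 0.223, edgeR) that passed the threshold in DESeq2 alone (adjusted p = 0.0119). In this comparison edgeR called 0.432% of the tested genes. Between 4 week MAC-1+ and SS MAC-1- HSCs the log2 difference was -0.53 (SE 0.19, adjusted p = 0.221, edgeR), where 2.36% of genes were called. Between MAC-1low and MAC-1- HSCs it was 0.43 (SE 0.18, adjusted p = 0.609, edgeR) at 4 weeks and -0.14 (SE 0.19, adjusted p = 0.919, edgeR) in SS, and the difference between these was 0.57 (SE 0.26, adjusted p = 0.541, edgeR). Lyz1, the neighbour of Lyz2 with a like sequence, had 0 to 25 counts, and 5.96% of the 75-base windows of Lyz2 transcripts also occur in Lyz1, so that few reads could have been split between them.

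Ms4a3 (chromosome 19, 11629496 to 11640851) was highest in 4 week MAC-1- HSCs by mean, at 53.7, 115 and 78.6 CPM. The 4 week MAC-1low samples were at 26.4, 14.4, 21.6 and 25.3 CPM, all below the MAC-1- samples, a log2 difference of -1.91 (SE 1.26, adjusted p = 0.885, edgeR). In 4 week MAC-1+ samples it was at 13.6, 0.251 and 115 CPM, so that replicate 3 was as high as the highest MAC-1- sample and the others were below all of them. The log2 difference from MAC-1- was -0.94 with all samples (SE 1.36, adjusted p = 0.876, edgeR) and -3.55 without replicate 3 (adjusted p = 0.408, edgeR). SS MAC-1- samples were at 22.7, 72.7 and 0.460 CPM and SS MAC-1low samples at 17.9, 11.9 and 14.7 CPM, and these overlapped. Ms4a3 was thus lower in MAC-1low than in MAC-1- HSCs at 4 weeks in every sample, where Prtn3 was higher in every sample, and neither difference passed the test. Of all tested genes, 10.8% had no overlap in this comparison.

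The colony-stimulating factor receptors were at low levels, and their order is given per length: the medians over samples were 2.96 RPKM for Csf2ra, 2.78 RPKM for Csf3r and 0 for Csf1r. Csf1r, the M-CSF receptor of monocytes and macrophages, had 6 counts in all samples together and at most 3 in one, with 0 in 12 samples that included all 4 week MAC-1low and MAC-1+ samples. Its highest level was 0.156 CPM, in SS MAC-1low replicate 1. It failed the default filter, and a 0 in the 12 samples allowed up to 0.112 to 0.220 CPM, by library.

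Csf3r (chromosome 4, 126024550 to 126044440), the G-CSF receptor of neutrophils and their progenitors, was detected in every sample but varied among replicates by far more than Lyz2. It was at 14.9, 0.314 and 14.1 CPM in SS MAC-1-, 22.2, 2.01 and 27.01 CPM in SS MAC-1low, 5.52, 3.75 and 1.81 CPM in 4 week MAC-1-, 19.0, 4.31, 6.06 and 14.4 CPM in 4 week MAC-1low and 15.3, 2.32 and 14.01 CPM in 4 week MAC-1+ samples. The 4 week MAC-1- samples had the lowest mean, 3.69 ± 1.86 CPM, and overlapped with each other population. The log2 difference of 4 week MAC-1+ from MAC-1- HSCs was 1.51 (SE 1.28, adjusted p = 0.704, edgeR).

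Csf2ra (chromosome 19, 61223957 to 61228429), the ligand-binding chain of the GM-CSF receptor, was at 8.202, 5.49 and 39.96 CPM in SS MAC-1-, 18.5, 0.893 and 17.6 CPM in SS MAC-1low and 17.0, 8.78 and 13.3 CPM in 4 week MAC-1- samples. It was at 4.10, 2.66, 2.41 and 9.99 CPM in 4 week MAC-1low and 8.15, 10.03 and 5.49 CPM in 4 week MAC-1+ samples. The populations overlapped throughout, and 4 week MAC-1+ differed from MAC-1- HSCs by -0.72 on the log2 scale (SE 1.10, adjusted p = 0.886, edgeR). SS MAC-1low replicate 2 was the lowest sample of its population for both Csf3r and Csf2ra.

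Counted over the members, 7 of the 9 passed the default filter on low counts, Mpo and Elane mostly through 1 to 3 libraries. In 4 week MAC-1+ against MAC-1- HSCs edgeR called 1 of the 7, Prtn3 (3.25% of all genes). Before adjustment 2, Prtn3 and Elane, had p below 0.05 (13.4% of all genes). DESeq2 called 2, Prtn3 and Elane (10.2%), and limma-voom 1, Prtn3 (6.52%). DESeq2 gave no adjusted p for Mpo in any test, so that its counts here and below leave Mpo out. Elane was at 0 in all 4 week MAC-1- samples, and all its counts in this comparison came from 1 library. Its fitted fold change depends on the prior count and is no measure of size, and its adjusted p was 0.191 (edgeR). Mpo had an adjusted p of 0.402 (edgeR), and without replicate 3 its sign turned.

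In each of the other 7 pairwise comparisons edgeR called 0 of the 7 members. Between 4 week MAC-1low and MAC-1- HSCs edgeR called 0.278% of all genes and 3 members had p below 0.05 before adjustment (7.25% of genes), while DESeq2 called 1, Elane (3.12%), and limma-voom 0 (2.34%). Between 4 week MAC-1+ and MAC-1low HSCs edgeR called 0% of genes, and 1 member, Mpo, had p below 0.05 (6.85%). All MAC-1+ counts of Mpo came from replicate 3. In this comparison DESeq2 (2.42%) and limma-voom (0.0366%) called 0 members. In SS MAC-1low against MAC-1- HSCs (0.0146% called) 0 had p below 0.05 (9.36%), and 0 were called by DESeq2 (5.6%) and limma-voom (0%). These members were thus not called on MAC-1 level within SS HSCs by any of the 3 tools.

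Between time points, 2 members had p below 0.05 in 4 week against SS MAC-1- HSCs (0.432% called, 10.4% with p below 0.05). DESeq2 called 2 there (6.83%), Lyz2 and Elane, the latter on 1 count in an SS MAC-1- sample against none, and limma-voom 0 (0.637%). In 4 week against SS MAC-1low HSCs (0.0439% called) 0 had p below 0.05 (8.89%), and DESeq2 (4.01%) and limma-voom (0.139%) called 0. Of 4 week MAC-1+ HSCs, 3 members (Mpo, Elane and Lyz2) had p below 0.05 against SS MAC-1- (2.36% called, 14% with p below 0.05). Against SS MAC-1low 1 did, Elane (1.42% called, 12.1%). All MAC-1+ counts of Mpo and Elane came from replicate 3. In these 2 comparisons DESeq2 called 0 (11% and 8.43%) and limma-voom 0 (1.62% and 0.908%). These comparisons share samples.

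The interaction called 0 members in edgeR (0.0586% of genes), with Lyz2 below 0.05 before adjustment (8.73%), 1 in DESeq2, Elane (4.68%), and 0 in limma-voom (0.132%). The joint test of all 5 populations called 0 in edgeR (2.22%), with 4 below 0.05 before adjustment (Mpo, Elane, Prtn3 and Lyz2, 13.8%). It called 2 in DESeq2, Prtn3 and Lyz2 (10.9%), and 0 in limma-voom (2.66%).

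Counted by samples without overlap, the members that stood apart were chiefly Prtn3 and Lyz2, beside Ms4a3 in 1 comparison. There was 1 of the 7 in 4 week MAC-1+ against MAC-1- (21.7% of all genes) and 2 in MAC-1low against MAC-1- at 4 weeks (Prtn3 and Ms4a3, 10.8%). In SS MAC-1low against MAC-1- there were 2 (Prtn3 higher and Lyz2 lower, 11.3%), and between MAC-1+ and MAC-1low at 4 weeks 0 (8.21%). Both Prtn3 and Lyz2 were lower in 4 week than in SS MAC-1- (16.6%), Prtn3 alone in 4 week than in SS MAC-1low (10.4%), and Lyz2 alone in 4 week MAC-1+ than in SS MAC-1- (17%) or SS MAC-1low (16.2%). No test was made of these counts against the shares over all genes.

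**Figure D5:**
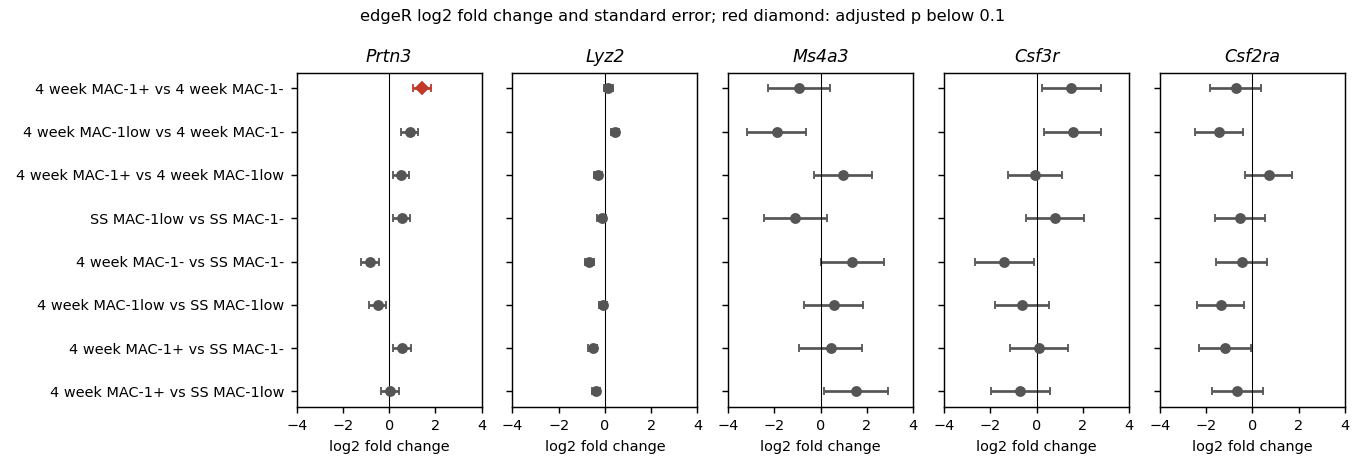
edgeR log2 fold change (point) and standard error (bar) of the 5 members that had counts in every sample, in the 8 pairwise comparisons, first population minus second. The diamond, Prtn3 in 4 week MAC-1+ against MAC-1- HSCs, is the single call, and the bars of Lyz2 and Prtn3 are shorter than those of Ms4a3, Csf3r and Csf2ra.

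Of 12 genes that act with or beside the granule proteins, 11 were tested. In 4 week MAC-1+ against MAC-1- HSCs 0 passed upward and 2 downward, Serpinb1a by -1.11 and Nkg7 by -2.51 (log2; median of the list 0.22, of all tested genes 0.07). Of all tested genes, 1.19% passed upward and 2.06% downward there. Serpinb1a encodes an inhibitor of neutrophil serine proteases and was at 94.1, 72.2 and 72.5 CPM in MAC-1+ and 119, 184 and 214 CPM in MAC-1- samples, a call that was lost without replicate 3 (adjusted p = 0.289, edgeR). Nkg7, a granule membrane gene of cytotoxic lymphocytes, kept its call there. Cd63, the gene of a tetraspanin of primary granule and lysosome membranes, was at 327 to 484 CPM in 4 week MAC-1- and MAC-1+ samples and at 656 to 1147 CPM in SS samples. With all samples it was the one gene of the list called in comparisons with SS HSCs. It was lower by 1.14 on the log2 scale (log2 difference -1.14, adjusted p = 0.0533, edgeR) in 4 week than in SS MAC-1- HSCs, where 0.432% of all genes were called. The log2 difference of Cd63 in 4 week MAC-1+ HSCs was -1.31 from SS MAC-1- (adjusted p = 0.00934, edgeR) and -0.996 from SS MAC-1low (adjusted p = 0.0653, edgeR, and 0.124 without replicate 3). Without replicate 3 Nkg7 was also called there, by -3.28 from SS MAC-1- (adjusted p = 0.0232, edgeR) and -2.95 from SS MAC-1low (adjusted p = 0.0532, edgeR). Of all genes, 1.31% and 0.502% were called in these 2 comparisons without it. Ctsc, the activator of the granule proteases, was at 174 and 221 CPM in MAC-1+ replicates 1 and 2 and at 8.37 CPM in replicate 3, its lowest value, since the other 15 samples were at 48.0 CPM or above. Srgn, the granule proteoglycan, was at 1920 to 6418 CPM over all samples, and Bpi, another primary granule protein, had at most 0.0474 CPM.

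Of 15 early myeloid progenitor genes and regulators, 10 were tested, and 2 passed upward and 0 downward in 4 week MAC-1+ against MAC-1- HSCs (median log2 difference 1.23). Of all tested genes, 1.19% passed upward and 2.06% downward there. Spi1, the gene of PU.1, was at 56.1, 54.6 and 46.4 CPM in MAC-1+ and 1.505, 2.16 and 7.60 CPM in MAC-1- samples, a log2 difference of 3.803 (SE 0.65, adjusted p = 0.00676, edgeR) that held without replicate 3 (3.90, adjusted p = 0.0198, edgeR). Myb, a factor of progenitor growth, was higher by 0.89 (adjusted p = 0.0816, edgeR) and was not called without replicate 3 (adjusted p = 0.212, edgeR). Spi1 was also higher in 4 week MAC-1low than MAC-1- HSCs, by 3.31 (adjusted p = 0.0529, edgeR), and lower in 4 week MAC-1- than in SS MAC-1- HSCs, by 3.12 (log2 difference -3.12, adjusted p = 0.0672, edgeR, and 0.107 without 4 week MAC-1+ replicate 3). In that last comparison 1 list gene passed upward (Plac8, a gene of myeloid progenitors, 1.57) and 2 downward (Spi1 and Myb, which had an adjusted p of 0.123 without that replicate, edgeR). Of all tested genes, edgeR called 0.432% in it. Plac8 also passed upward in 4 week MAC-1low against SS MAC-1low (1.67), and 4 week MAC-1+ HSCs exceeded SS MAC-1- by 1.98 and SS MAC-1low by 1.69. Cebpa, the factor that starts granulocyte-monocyte differentiation, was at most 0.0917 CPM in any sample.

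On the receptor side, the 4 ligand genes Csf1, Il34, Csf2 and Csf3 were at 11.4 CPM or less, and the 3 other than Csf1 at 0.125 CPM or less. Csf1 alone was tested and did not pass in any comparison. Of 6 partners and relatives of the receptors, 4 were tested. In 4 week MAC-1+ against MAC-1- HSCs 1 passed upward (1.19% of all genes), Kit, the receptor of stem cell factor (0.99, adjusted p = 0.0752, edgeR; median of the list 2.40). Against SS MAC-1- HSCs 2 passed upward, Csf2rb2 and Flt3 (2.36% of all genes were called in either direction). Csf2rb2, the beta chain of the mouse IL-3 receptor, was at 25.3, 17.6 and 11.6 CPM in 4 week MAC-1+ and 0, 0.0523 and 0 CPM in SS MAC-1- samples (adjusted p = 0.0246, edgeR). Flt3, a receptor of multipotent and lymphoid progenitors, was at 2.28, 19.6 and 23.4 CPM against 1.17, 0.105 and 0.102 CPM, and was not called without replicate 3. Csf2rb, the chain that CSF2RA needs, was at 42.8, 6.27 and 55.8 CPM in 4 week MAC-1+ and 3.51, 3.98 and 12.0 CPM in 4 week MAC-1- samples, which overlapped. Of 16 genes of receptor signalling, all were tested and 0 passed in 4 week MAC-1+ against MAC-1- HSCs (median 0.58, 2 with p below 0.05 before adjustment, edgeR), and 1, Jak1, passed upward against SS MAC-1-. Of all genes, 13.4% had p below 0.05 in the first comparison, where 3.25% were called, and 2.36% were called in the second (edgeR).

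The genes most like each tested member were sought by Pearson's r of log2 CPM over the 16 samples among 11084 genes. For Prtn3 these were Fgfr1 (r = 0.82, Spearman's rho 0.85), Gatsl3 (0.81, 0.84) and Odf3b (0.80, 0.80), and r was 0.80 to 0.84 without 4 week MAC-1+ replicate 3. For Lyz2 they were Lrrk1 (r = 0.84, rho 0.79), Uck1 (0.83, 0.67) and Ramp1 (0.81, 0.76), for Ms4a3 Idi1 (0.91, 0.68), Rnaseh1 (0.90, 0.73) and Ift27 (0.87, 0.38), for Csf3r Rab11fip1 (0.85, 0.68), Mtmr4 (0.82, 0.60) and Sgsh (0.82, 0.78), and for Csf2ra Xpo4 (0.87, 0.87), Mmab (0.79, 0.69) and Fam169a (0.78, 0.78). For Mpo the first was Chil3 (r = 0.77, rho 0.16), with 1413 counts in replicate 3 and at most 9 elsewhere, and r was -0.11 without that library. For Elane the first was Gm4955 (r = 0.82, rho 0.53, and 0.75 without replicate 3). The points share their libraries and no p is given.

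Among the members themselves no pair had an r above 0.59. Mpo and Elane had r = 0.59 over 16 samples and -0.14 without 4 week MAC-1+ replicate 3, and Elane and Prtn3 had 0.58 and 0.31. Prtn3 and Lyz2 had 0.42, and 0.48 without that replicate, and Csf3r and Csf2ra had 0.35 and 0.38.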

How the data were processed

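RNA of sorted LSK SLAM HSCs was sequenced after SMART-Seq v4 amplification and Nextera XT library preparation in 16 samples of 5 populations, which were mapped by their titles. The authors deposited raw read counts per gene, for which the sources name STAR and an nf-core pipeline. Which program counted the reads, and on which build and annotation, is not given in the sources used here. Whole transcripts are copied without molecular identifiers, so that PCR copies count as reads and longer genes gain more of them. No source used here states whether counting used strand.

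The tests were run with edgeR 4.0.16 under R 4.3.3 (TMM factors, default filter on low counts, robust quasi-likelihood test), with 1 mean per population over all samples and a contrast per comparison. Genes were called at a Benjamini-Hochberg adjusted p below 0.1 over the 13661 genes tested. Nothing says which mice gave which sample, so p-values measure the spread between samples, which may be technical. Each pair of replicates differed beyond the counting error of reads (chi-square per degree of freedom of at least 120.0), to which PCR copies may add. CPM were scaled by TMM factors, RPKM divided them by the exon length in GENCODE M21 (GRCm38), in which 98.0% of the identifiers were found, and a prior count of 2 was added for log2 CPM. The table has 0 lines without a gene and 0 unused sample columns.

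The members, gene lists and tests were chosen with earlier results of these data known. The genes named are the 9 members, Lyz1, the MAC-1 subunit genes Itgam and Itgb2, for each tested member up to 3 genes with the highest r among genes with a mean of at least 50 scaled counts, list genes that passed in a comparison described (up to 5 per direction), and defining markers beside a result they move with. Chosen after their values were seen were Ctsc, Srgn, Bpi, Cebpa, Csf2rb, the ligand genes and the neighbours of Prtn3. Alternatives were DESeq2 1.42.0, limma-voom with sample weights (limma 3.58.1), edgeR with the size factors of DESeq2, no filter or a stricter one, a fit to just the samples compared, thinning to the lowest total, detected genes as a covariate, a replicate block, other thresholds, Lyz1 and Lyz2 summed, and each sample left out. List counts without 4 week MAC-1+ replicate 3 were added after seeing the data. The tests were tried on simulated counts first. Marker lists for basophils and mast cells, eosinophils, B and NK cells and erythroblasts summed to at most 120, 15.1, 14.2, 33.4 and 170 CPM in any sample, and monocyte/macrophage markers to 21.8 to 310 CPM. Plots were drawn with matplotlib.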

Additional observations from a re-analysis of the deposited data

How the results depend on the processing

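The call of Prtn3 in 4 week MAC-1+ against MAC-1- HSCs, the single member called, kept its direction in each alternative run, with a log2 difference of 1.31 to 1.47 and an adjusted p of 0.00561 to 0.245, and of 0.85 to 1.76 and 0.0150 to 0.357 with 1 sample left out. With only the groups compared, detected genes as a covariate, or a threshold of 0.05, 0 members were called, and with DESeq2 or with no filter on low counts 2 were, with Elane or Ctsg added to Prtn3. Leaving out 1 sample gave 0 to 1 members. DESeq2 gave 1 member for 4 week MAC-1low against MAC-1-, 2 for 4 week against SS MAC-1-, 1 for the interaction and 2 for the joint test. With no filter the joint test called 2 (Prtn3 and Ctsg) and 4 week MAC-1+ against SS MAC-1- called 1 (Ctsg), which rests on 1 library. The joint test called 0 to 1 with a sample left out, the 1 being Prtn3 without 4 week MAC-1+ replicate 1. The other counts of members stayed at 0 in each alternative run, and the cause of these shifts was not tested.

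With a sample left out, the log2 difference of Prtn3 between 4 week MAC-1+ and MAC-1low ran from -0.061 to 0.88, the lowest without MAC-1+ replicate 3. In 4 week MAC-1+ against MAC-1- that of Lyz2 ran from -0.011 (without MAC-1- replicate 1) to 0.36, that of Mpo from -6.57 (without MAC-1+ replicate 3) to 8.05, and the fitted value of Elane, which depends on the prior count and is no bound, from 0 (without the same replicate) to 13.9. Without 4 week MAC-1+ replicate 3, the calls among early myeloid progenitor genes went from 2 to 1, those among granule partners from 2 to 1, and both neutrophil genes called (S100a8 and S100a9) stayed. The share of all genes called in 4 week MAC-1+ against MAC-1- HSCs went from 3.25% to 1.76% (edgeR).

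With the replicate block, 0 members were called in 4 week MAC-1+ against MAC-1- (Prtn3 1.38, adjusted p = 0.170, edgeR), and no other count of members moved. Same-numbered samples had deviations that correlated at -0.02 to 0.04 across genes, and 6 of 15 correlated best with their own number. These values cannot show whether samples shared a mouse or a day, since no label ties the numbers to either.

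A 0 allows up to 0.112 to 0.220 CPM, by library. Ctsg and Csf1r failed the default filter, and Mpo, Elane and Ctsg rest chiefly on 1 library.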
